A study of Mus musculus with 6 samples.

Results

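Matrix proteases and their inhibitors were examined in the inguinal subcutaneous white adipose tissue (SC-WAT) of wild-type mice and mice without *Egr1*. The genes were chosen by name and biotype, as every protein-coding gene of the GENCODE annotation of GRCm38 whose symbol is *Mmp*, *Timp*, *Adamts* or *Adamtsl* followed by a number. The rule gave 50 of the 47069 genes in the count tables, namely 22 *Mmp*, 4 *Timp*, 19 *Adamts* and 5 *Adamtsl* genes. Of these, 44 passed the filter on low counts and were tested among 17667 genes, and 6 *Mmp* genes did not. *Mmp1a*, a polymorphic pseudogene in that annotation, was outside the rule.

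RNA was sequenced from the whole fat pads of 3 *Egr1*+/+ and 3 *Egr1*-/- female C57BL/6 mice aged 2 weeks, 1 library per mouse. The study's methods give the background of the line as C57BL/6 J. The *Egr1*-/- mice carry an inactivated *Egr1* allele in all their cells, made by inserting *LacZ* into the 5′ untranslated region and shifting the reading frame ahead of the DNA-binding domain. The 6 mice came from 4 litters, and 1 mouse of each genotype shared a litter, without a record of which libraries these were. The study compared the genotypes to find the genes whose RNA level in this depot differs when the transcription factor EGR1 is missing.

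Matrix metalloproteinases (MMPs) are zinc-dependent enzymes made as inactive precursors, which between them cut collagens, gelatins, proteoglycans and growth factor carriers. The ADAMTS enzymes are secreted relatives with thrombospondin repeats that trim procollagens, cut large proteoglycans such as versican and act on microfibrils, while the ADAMTSL proteins share their repeats but have no protease domain. The TIMPs, tissue inhibitors of metalloproteinases, block the active site of these enzymes, and TIMP2 also bridges the membrane enzyme MMP14 to the precursor of the gelatinase MMP2, which MMP14 then activates. In fat pads the pericellular collagenase MMP14 remodels the collagen network around growing adipocytes.

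Promoter sequences of 250 bases before to 50 bases after the start site were available from RefSeq (GRCm38.p6) for 35 of the 50 genes. EGR1 binds a GC-rich sequence of 9 bases, and GCGTGGGCG and GCGGGGGCG were searched on both strands. One of these lay in the promoters of 4 of the 35 genes (11.4%), against 3.93% of the 27025 genes with a promoter in the same table. The windows of 30 bases around these motifs are shown because they carry the letters of the factor that the *Egr1*-/- mice lack, with the 9 bases in capitals, 5′ to 3′ on the strand of the gene.
Mmp14: gggcattgggGCGGGGGCGgaggagaggct
Mmp11: cccggcgccgGCGGGGGCGgggcgaatgct
Adamts14: tcgccaggccCGCCCCCGCccccggcgccc
Mmp24: gcgcgcggagGCGGGGGCGcgcggcggccg

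The *Mmp14* window lies at chr14:54431571-54431600 on the plus strand, with the motif beginning 17 bases before the start site. The *Mmp11* window lies at chr10:75932506-75932535 on the minus strand, 23 bases before the start site. The *Adamts14* window, at chr10:61273487-61273516 on the minus strand, holds the motif on the opposite strand. The *Mmp24* window lies at chr2:155775299-155775328 on the plus strand. In *Mmp14*, *Mmp11* and *Adamts14* the motif overlaps the SP1-type letters GGGCGG, which 22 of the 35 promoters and 38.2% of all genes hold. With the shorter core of 8 bases (GCGTGGGC or GCGGGGGC) *Adamts9* joined them, giving 5 of 35 against 7.07%. A match is a run of letters and not a bound site, and for *Mmp2*, *Adamts5*, *Adamts16*, *Adamts19*, *Adamtsl1* and *Mmp16*, among others described here, no promoter was in the table used.

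The AP-1 letters TGACTCA, which read TGAGTCA on the other strand, lay in the promoters of 6 of the 35 genes (17.1%), against 5.95% of genes with a promoter. AP-1 is the factor long known to drive collagenase and stromelysin genes after growth factor and cytokine signals. All 6 genes belong to a cluster of 9 *Mmp* genes on chromosome 9 (7272514 to 7699585, 427 kb), and all 6 promoters also hold the TATA letters TATAAA, which 11 of the 35 promoters and 15.7% of all genes hold. Their windows are shown because the matches fall together in this one cluster, with the AP-1 letters in capitals, 5′ to 3′ on the strand of the gene.
Mmp13: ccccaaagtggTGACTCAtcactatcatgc
Mmp12: gacatcaacagTGAGTCAgatagaggattt
Mmp1b: gttacaaagccTGAGTCAtatagcctctgg
Mmp3: ggaagcaattaTGAGTCAgttttcgggtga
Mmp10: tagcacccatgTGAGTCAtgcttagtgacc
Mmp7: aagtgtgcaaaTGAGTCAcctatttccaca

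These windows lie at chr9:7272468-7272497 for *Mmp13*, chr9:7347319-7347348 for *Mmp12* and chr9:7445765-7445794 for *Mmp3*. For *Mmp10* and *Mmp7* they lie at chr9:7502268-7502297 and chr9:7692016-7692045, all on the plus strand. The *Mmp1b* window lies at chr9:7388101-7388130 on the minus strand. The level of these genes in SC-WAT was low: the 9 cluster genes together held 7.64% of all *Mmp* counts, and *Mmp1b*, *Mmp10* and *Mmp7* were among the genes too low to test.

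Between 30633901 and 36875648 counts fell on genes in *Egr1*+/+ libraries, and between 29661984 and 42357981 in *Egr1*-/- libraries. Mitochondrial genes took 50.0% to 57.4% and 54.9% to 66.3% of them, the highest share being in *Egr1*-/- replicate 1. Levels are given as CPM, counts per 1000000 of the library size, which edgeR's TMM method scaled. In these libraries 1 count was worth 0.0232 to 0.0333 CPM, and a count of 0 allows a level of up to 3 counts, 0.0696 to 0.0999 CPM, by counting error only. For *Egr1* itself the 3 *Egr1*+/+ libraries held 353, 241 and 711 counts, and the 3 *Egr1*-/- libraries 103, 84 and 57. The genotypes did not overlap, in the direction of the labels, although transcripts that counted on *Egr1* remained in all 3 *Egr1*-/- mice. This is a log2 fold change of -2.19. Its adjusted p was 0.0878 by the quasi-likelihood test of edgeR and 4.92e-10 by DESeq2.

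The labelled tissue was checked against adipocyte markers (*Adipoq*, *Plin1*, *Fabp4*, *Lep*, *Cidec*, *Lipe*, *Pnpla2*), all of which were detected in each mouse. Their summed level was 5858 to 6345 CPM in *Egr1*+/+ mice and 4734 to 5741 CPM in *Egr1*-/- mice, with 2 of 7 lower and 1 higher at an unadjusted p under 0.05 in edgeR. Of all genes tested, 5.60% were lower and 5.06% higher by that measure. Other marker sums moved with genotype too. The 10 stromal progenitor and fibroblast markers summed to 1272 to 1372 CPM in *Egr1*+/+ mice and 721 to 997 CPM in *Egr1*-/- mice, and 8 of the 10 were lower by the same measure. The 7 macrophage markers summed to 335 to 476 CPM against 263 to 315 CPM, with 5 of 7 lower, and 3 of 5 Schwann cell markers were lower. All 5 brown and beige adipocyte markers were higher, with sums of 456 to 609 CPM against 840 to 1405 CPM. Of the tested markers of other cells, 1 of 6 endothelial genes was lower, 1 of 7 lymphocyte and 1 of 5 mural genes were higher, and 0 of 3 neutrophil, 0 of 6 skeletal muscle, 0 of 6 mammary epithelium and 0 of 2 cartilage and bone genes differed by this measure. The neutrophil sum was higher without overlap all the same, at 3.40 to 4.86 CPM in *Egr1*+/+ and 5.22 to 6.11 CPM in *Egr1*-/- mice. Among single genes, 8.15% of all tested were higher without overlap. The skeletal muscle sum ranged from 184 to 2960 CPM in *Egr1*+/+ mice and from 86.0 to 2385 CPM in *Egr1*-/- mice, and no marker was at 0 in all mice. Fibroblasts, macrophages and Schwann cells all make matrix proteases or TIMPs, and in RNA from a whole pad fewer cells of a type and less RNA per cell cannot be told apart. The part of these marker shifts in the differences described below was not tested.

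Levels of different genes were compared per kb of exon. The 2 most abundant RNAs were inhibitors, *Timp3* with a mean of 22.7 CPM per kb over the 6 mice and *Timp2* with 21.7. They were followed by the gelatinase *Mmp2* (17.0), *Adamts12* (8.33), *Mmp14* (7.12), *Timp4* (6.35), *Adamts1* (5.66), *Adamts2* (5.30), *Adamts10* (4.73), *Mmp23* (4.71), *Adamts9* (4.64) and *Adamts5* (4.58). Of the neighbours in this order, only *Mmp2* and *Adamts12* did not overlap over the 6 mice, so the order of the others is not fixed by these data. With the longest transcript as the length, 11 of the 12 stayed among the 12 highest, and *Mmp19* replaced *Adamts5*. Only 19 of the 44 tested genes exceeded 1 CPM per kb, and the highest stood 311-fold above the lowest.

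The classes were carried by few genes. *Timp3* and *Timp2* made up 86.4% of the *Timp* total per kb. *Mmp2*, *Mmp14* and *Mmp23* made up 62.7% of the *Mmp* total, and *Mmp2* alone 36.9%. The *Adamts* total was spread more widely, with 5 genes needed for 72.3% of it. *Adamtsl4* held 44.1% of the *Adamtsl* total.

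**Figure D1:**
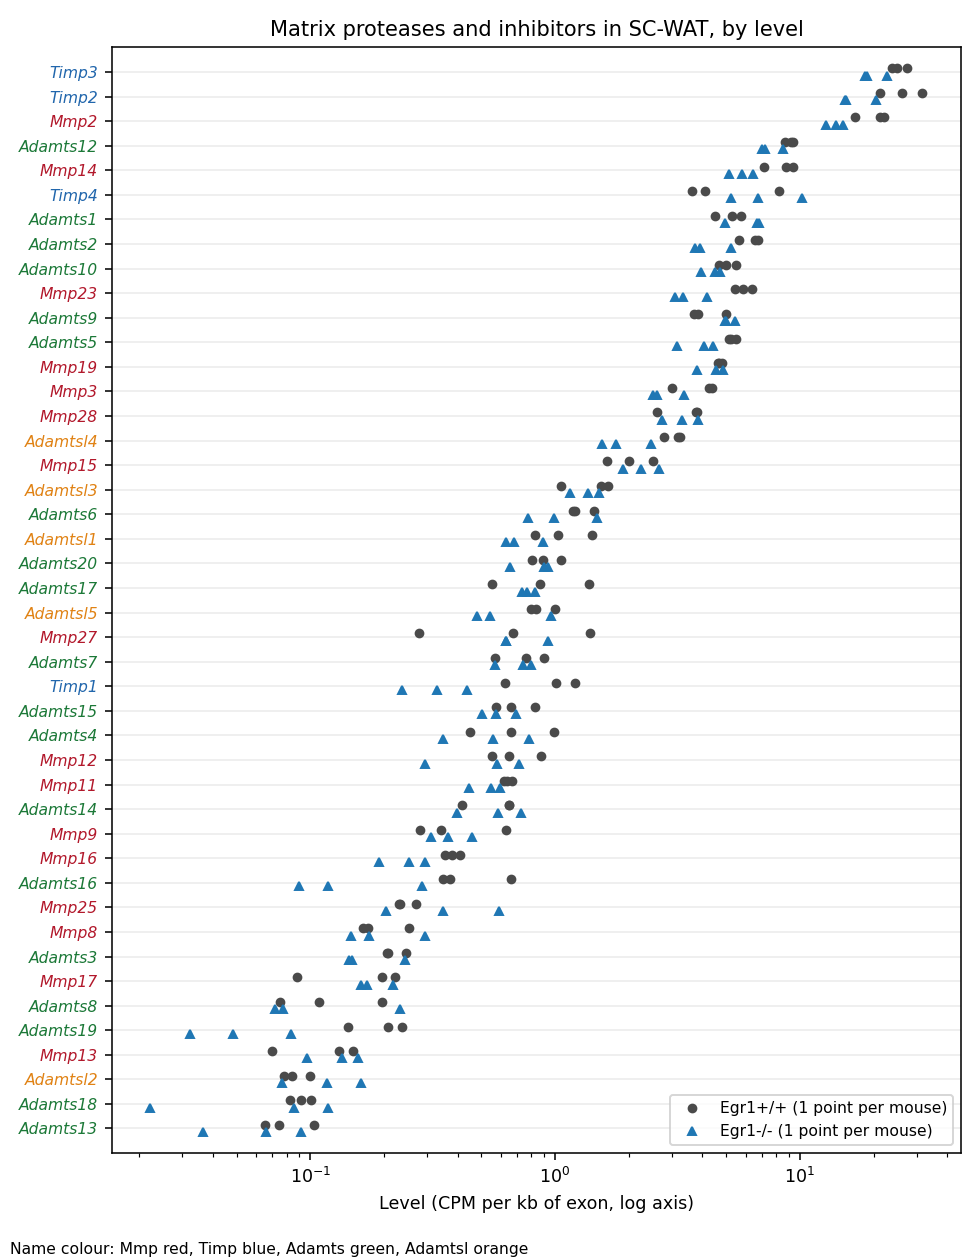
Level of each of the 44 tested genes in CPM per kb of exon on a log axis, 1 point per mouse (circles *Egr1*+/+, triangles *Egr1*-/-), ordered by the mean over all mice. *Timp3*, *Timp2* and *Mmp2* lie highest, at means of 22.7, 21.7 and 17.0, and the triangles of *Timp1*, *Adamts16* and *Adamts19* lie to the left of their circles.

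Between the genotypes most of these genes had lower fitted levels in *Egr1*-/- SC-WAT. Of the 44 tested, 34 had a negative log2 fold change (77.3%, against 49.9% of all genes tested), and the median was -0.26 against 0.00109 over all genes. None reached an adjusted p under 0.05 by the quasi-likelihood test of edgeR, where 0.0170% of all genes did, and the lowest adjusted p was 0.165. At an unadjusted p under 0.05, 13 were lower (29.5%, against 5.60% of all genes tested) and 0 were higher (against 5.06%). In 14 genes every *Egr1*-/- mouse lay below every *Egr1*+/+ mouse (31.8%, against 8.10% of all genes), and in 0 genes every *Egr1*-/- mouse lay above (against 8.15%). DESeq2 called 7 lower at an adjusted p under 0.05 (15.9%, against 1.14% of all genes) and 0 higher (against 0.702%), and limma-voom called 0.

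The 13 were *Timp1*, *Timp2*, *Timp3*, *Mmp2*, *Mmp14*, *Mmp16*, *Mmp23*, *Adamts2*, *Adamts5*, *Adamts16*, *Adamts19*, *Adamtsl1* and *Adamtsl4*, and the 7 called by DESeq2 were *Timp2*, *Mmp2*, *Mmp14*, *Mmp23*, *Adamts2*, *Adamts16* and *Adamts19*. Of the 13, 7 had a promoter in the RefSeq table, and 1 of these, *Mmp14*, held the EGR-type letters, while all 7 held GGGCGG and 0 the AP-1 letters. Over the 29 tested genes with a promoter, these 7 among them, 21 held GGGCGG, 3 the EGR-type letters and 3 the AP-1 letters. A difference in these shares was not tested. The median log2 fold change was -0.48 for *Timp*, -0.11 for *Mmp*, -0.26 for *Adamts* and -0.41 for *Adamtsl* genes. The mice of a genotype were not alike over these genes: *Egr1*-/- replicate 1 was the highest of its genotype in 29 of the 44 genes and replicate 2 the lowest in 25. The members' share of non-mitochondrial counts was 0.217% to 0.237% in *Egr1*+/+ mice, 0.214% in *Egr1*-/- replicate 1, and 0.180% and 0.178% in the others. The *Mmp* median was -0.34 without *Egr1*+/+ replicate 1, -0.21 without *Egr1*+/+ replicate 3, -0.23 without *Egr1*-/- replicate 1 and -0.0021 without *Egr1*-/- replicate 2. Without *Egr1*-/- replicates 1 or 3 the *Adamtsl* median was -0.73 or -0.22.

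**Figure D2:**
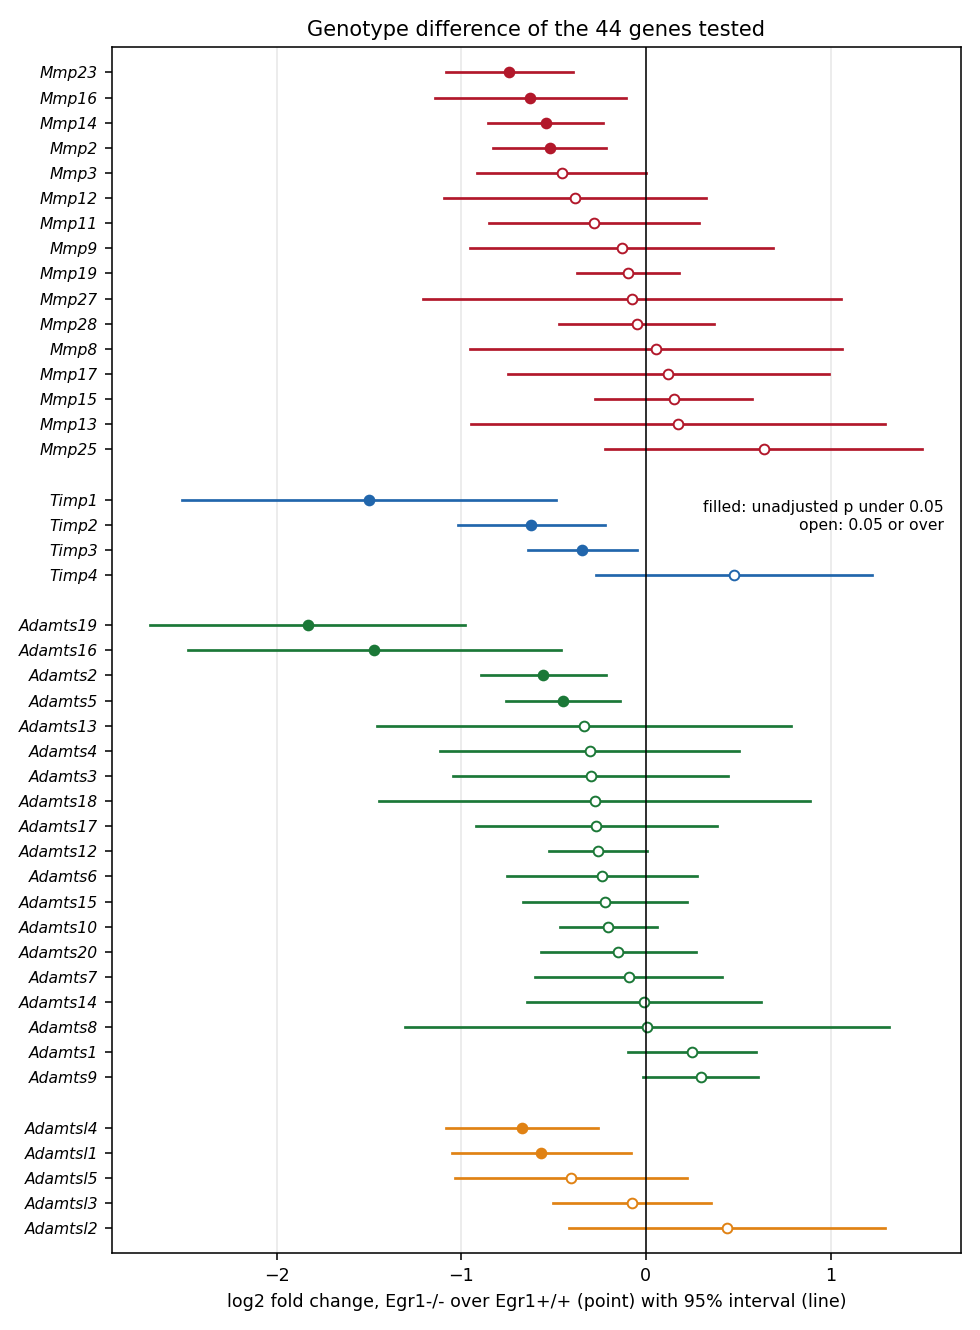
Fitted log2 fold change of each tested gene, *Egr1*-/- over *Egr1*+/+ (points), with its 95% interval (lines), by class (*Mmp* red, *Timp* blue, *Adamts* green, *Adamtsl* orange). Filled points mark the 13 genes with an unadjusted p under 0.05, all of them left of 0, and the 10 genes with a positive value have intervals that include 0.

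Of the 4 inhibitors, *Timp1*, *Timp2* and *Timp3* were lower at an unadjusted p under 0.05 in edgeR, against 5.60% of all genes tested. DESeq2 called only *Timp2* lower, against 1.14% of all genes. *Timp2* (chromosome 11, 118301069 to 118355740, minus strand), the soluble inhibitor that also takes part in MMP2 activation, stood at 82.5, 123.5 and 101.5 CPM in *Egr1*+/+ mice but at 79.8, 59.8 and 60.2 CPM in *Egr1*-/- mice. The highest *Egr1*-/- mouse lay just under the lowest *Egr1*+/+ mouse. Its log2 fold change was -0.62 ± 0.18 (SE), or 0.650 times the *Egr1*+/+ level, with an adjusted p of 0.260 in edgeR and 0.0376 in DESeq2. *Timp3* (chromosome 10, 86300372 to 86349506), which binds to the matrix and also inhibits ADAMTS enzymes and sheddases, stood at 202.4, 224.1 and 193.0 CPM against 185.1, 150.0 and 153.0 CPM. The groups did not overlap, and the difference was smaller, -0.34 ± 0.13 (SE), with an edgeR adjusted p of 0.392. Its unadjusted edgeR p of 0.0279 lay between 0.0801 and 0.0895 when *Egr1*+/+ replicate 2, *Egr1*-/- replicate 2 or *Egr1*-/- replicate 3 was left out.

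*Timp1* (chromosome X, 20870166 to 20874735), the inhibitor that cytokines and growth factors induce, was scarce in this depot, counted 19, 27 and 46 times in *Egr1*+/+ and 7, 12 and 9 times in *Egr1*-/- libraries. These correspond to 0.553, 0.899 and 1.07 CPM against 0.210, 0.387 and 0.291 CPM, without overlap. The log2 fold change of -1.50 ± 0.45 (SE) was the largest among the inhibitors, with an edgeR adjusted p of 0.284. DESeq2 gave an adjusted p of 0.230.

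*Timp4* (chromosome 6, 115241892 to 115252205, minus strand), an inhibitor best known from heart, brain and fat, was the one inhibitor with a positive value. It stood at 24.0, 48.5 and 21.3 CPM in *Egr1*+/+ mice and at 60.3, 30.7 and 39.6 CPM in *Egr1*-/- mice, and the groups overlapped through *Egr1*+/+ replicate 2. The log2 fold change was 0.48, with a 95% interval from -0.27 to 1.23 and an edgeR adjusted p of 0.670, so neither a rise nor equal levels can be stated. The 6 fits that lacked 1 mouse gave *Timp4* values from 0.17 to 0.94, at unadjusted edgeR p-values of 0.00587 to 0.618. Only 1 of these fits, the one without *Egr1*+/+ replicate 2, had an unadjusted p under 0.05. Its log2 fold change was 0.94, with an edgeR adjusted p of 0.267. *Timp1*, *Timp3* and *Timp4* lie within the synapsin genes *Syn1*, *Syn3* and *Syn2* on the opposite strand, and exons overlap by 1733 bases for *Timp3* and 90 for *Timp4*. The library kit keeps strand, but the strand setting of the counting is not given in the sources used here. *Syn1* and *Syn3* held 38 and 482 counts over all mice, *Syn2* 1186.

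**Figure D3:**
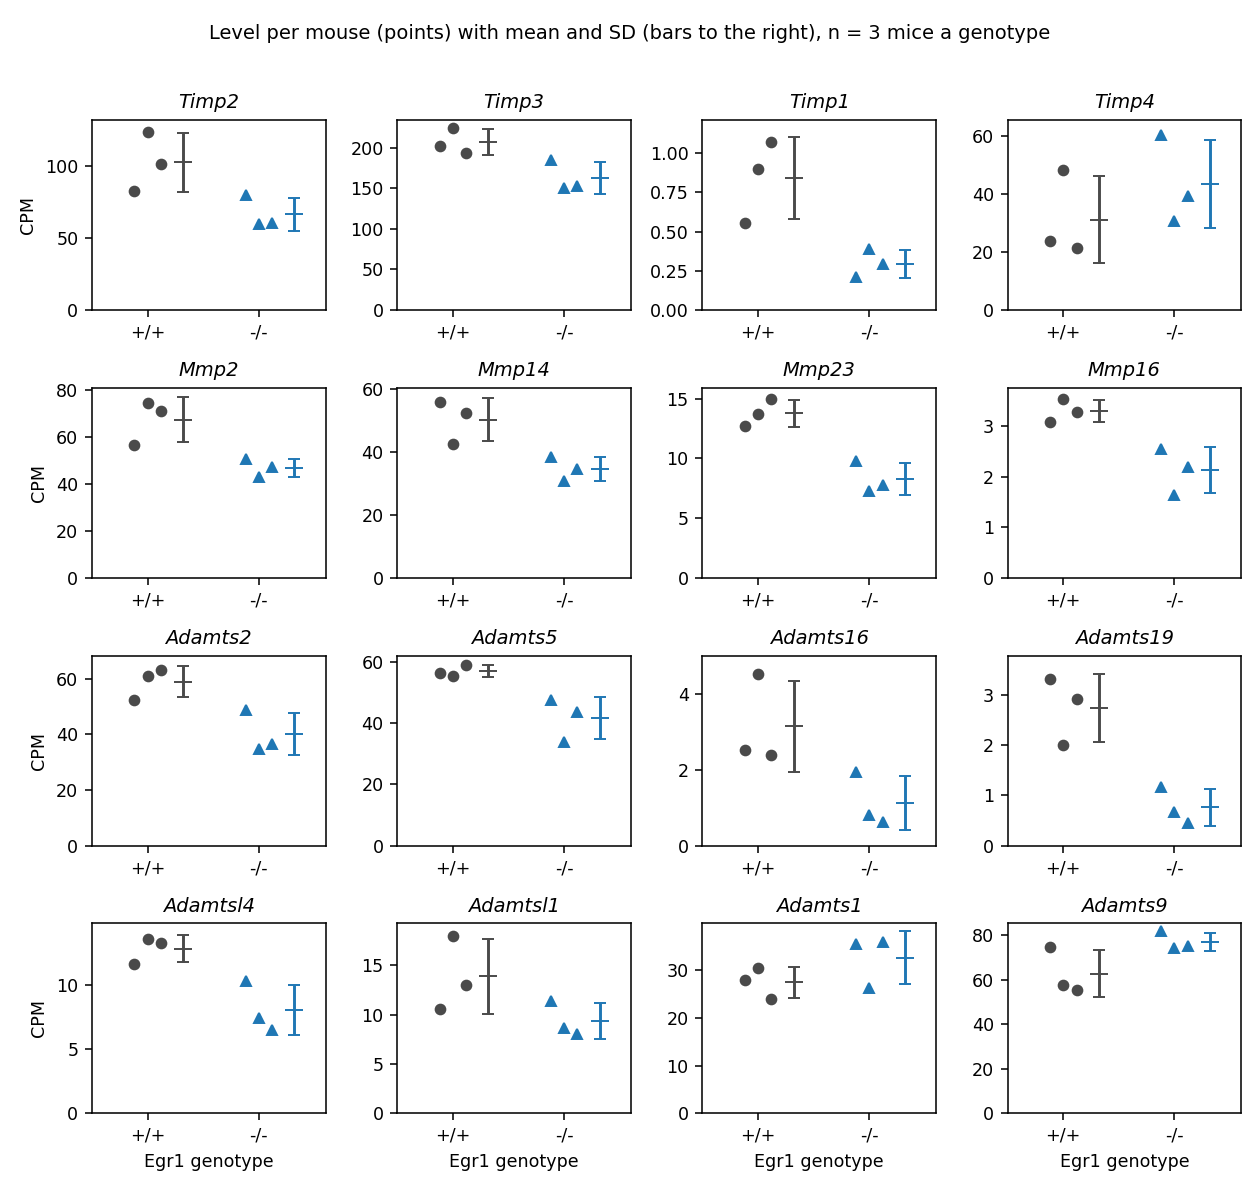
CPM of 16 genes in each mouse (points) with the mean and SD of each genotype (bars, n = 3 mice), each panel starting at 0. Shown are the 13 genes lower at an unadjusted p under 0.05 in edgeR, with *Timp4*, *Adamts1* and *Adamts9*. In 12 panels all *Egr1*-/- points lie below the *Egr1*+/+ points, which follows in part from this choice, while *Timp4*, *Adamts1*, *Adamts9* and *Adamtsl1* overlap. Of the 44 genes tested 31.8% were lower without overlap, against 8.10% of all genes tested.

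Among the metalloproteinases DESeq2 called 3 of the 16 tested lower, *Mmp2*, *Mmp14* and *Mmp23*, against 1.14% of all genes tested. The products of *Mmp2* and *Mmp14* take part with TIMP2 in the MMP2 activation route, and a joint shift of that route was not tested. *Mmp2* (chromosome 8, 92827291 to 92853420), gelatinase A, stood at 56.7, 74.4 and 71.3 CPM in *Egr1*+/+ mice and at 50.6, 42.9 and 47.4 CPM in *Egr1*-/- mice. All 3 *Egr1*-/- mice lay below the *Egr1*+/+ mice. *Mmp2* had a log2 fold change of -0.52 ± 0.13 (SE), or 0.696 times the *Egr1*+/+ level, with an adjusted p of 0.227 in edgeR and 0.0378 in DESeq2. *Mmp14* (chromosome 14, 54431612 to 54445364), the membrane-type collagenase whose promoter window with the EGR-type letters is printed above, stood at 55.9, 42.7 and 52.3 CPM against 38.3, 30.7 and 34.7 CPM. Again the groups did not overlap, with a log2 fold change of -0.54 ± 0.14 (SE) and adjusted p-values of 0.227 in edgeR and 0.0365 in DESeq2.

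*Mmp23* (chromosome 4, 155650655 to 155653384, minus strand), a membrane-anchored enzyme without the usual hemopexin domain, had the lowest p of the class. Its level was 12.7, 13.7 and 14.9 CPM in *Egr1*+/+ mice and 9.76, 7.23 and 7.76 CPM in *Egr1*-/- mice. This gave a log2 fold change of -0.74 ± 0.15 (SE), or 0.599 times, with adjusted p-values of 0.165 in edgeR and 0.00798 in DESeq2. *Mmp16* (chromosome 4, 17852893 to 18119145), a further membrane-type enzyme, was near 3 CPM in *Egr1*+/+ mice (3.09, 3.53 and 3.27) and lower in all *Egr1*-/- mice (2.55, 1.65 and 2.20). Its log2 fold change was -0.63 ± 0.23 (SE), with an edgeR adjusted p of 0.373. The unadjusted edgeR p of 0.0229 became 0.0581, 0.0508 and 0.0696 without *Egr1*+/+ replicates 2 or 3 or *Egr1*-/- replicate 2.

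The other 12 *Mmp* genes tested had log2 fold changes from -0.46 (*Mmp3*) to 0.64 (*Mmp25*), with edgeR adjusted p-values of 0.469 to 0.978. *Mmp11*, a furin-activated enzyme of stromal cells with the EGR-type letters in its promoter, did not overlap between the genotypes (1.72, 1.77 and 1.86 CPM against 1.23, 1.65 and 1.52 CPM). Its log2 fold change of -0.28 had a 95% interval from -0.85 to 0.29. If strand was not used in counting, reads of *Mmp11* could also come from *Chchd10*, which overlaps 155 exon bases on the other strand and had 14303 counts over all mice. Of the cluster on chromosome 9, *Mmp3*, *Mmp8*, *Mmp12*, *Mmp13* and *Mmp27* were tested, and their genotypes overlapped. The 6 genes below the filter were *Mmp1b*, *Mmp7*, *Mmp10*, *Mmp20*, *Mmp21* and *Mmp24*, with 0 to 14 counts per mouse, so that differences between the genotypes were not detectable at this depth. *Mmp24* is one of the 4 genes with the EGR-type letters, and had 4, 5 and 1 counts against 1, 6 and 0.

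Among the ADAMTS enzymes, 4 of 19 were lower at an unadjusted p under 0.05 in edgeR (against 5.60% of all genes tested) and 3 were called lower by DESeq2 (against 1.14%). *Adamts2* (chromosome 11, 50602084 to 50807573), the main procollagen N-proteinase, stood at 52.5, 61.1 and 63.0 CPM in *Egr1*+/+ mice and at 48.8, 34.9 and 36.6 CPM in *Egr1*-/- mice. The groups did not overlap, with *Egr1*-/- replicate 1 nearest to the *Egr1*+/+ mice. The fitted log2 fold change was -0.56 ± 0.15 (SE), or 0.681 times, with adjusted p-values of 0.245 in edgeR and 0.0457 in DESeq2. The other procollagen N-proteinases, *Adamts3* and *Adamts14*, were far lower in level, at means of 1.20 and 2.97 CPM in the *Egr1*+/+ mice. Their log2 fold changes were -0.30 (95% interval -1.05 to 0.45) and -0.01 (-0.64 to 0.62), and *Adamts14* carries the EGR-type letters.

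*Adamts5* (chromosome 16, 85856173 to 85901828, minus strand), an aggrecanase that also cuts versican, stood at 56.5, 55.4 and 59.1 CPM in *Egr1*+/+ mice and at 47.7, 34.0 and 43.6 CPM in *Egr1*-/- mice. The *Egr1*+/+ mice were close to each other, and all *Egr1*-/- mice lay below them. *Adamts5* had a log2 fold change of -0.45 ± 0.14 (SE), with adjusted p-values of 0.291 in edgeR and 0.123 in DESeq2. *Adamts1* lies 53.1 kb away on the same strand and encodes an enzyme that also cuts versican. It stood at 28.0, 30.4 and 24.0 CPM in *Egr1*+/+ mice and at 35.5, 26.2 and 36.0 CPM in *Egr1*-/- mice, with overlap. Its log2 fold change was 0.25, with a 95% interval from -0.09 to 0.59 and an edgeR adjusted p of 0.617.

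*Adamts9*, a versican-cutting enzyme with a long tail of thrombospondin repeats, stood at 74.8, 57.5 and 55.7 CPM against 81.8, 74.2 and 75.0 CPM. Only *Egr1*+/+ replicate 1 reached the *Egr1*-/- range, and the log2 fold change was 0.30, with a 95% interval from -0.01 to 0.61 and an edgeR adjusted p of 0.486. The 6 fits that lacked 1 mouse gave *Adamts9* values from 0.22 to 0.43, at unadjusted edgeR p-values of 0.0091 to 0.213. Only 1 of these fits, the one without *Egr1*+/+ replicate 1, had an unadjusted p under 0.05. Its log2 fold change was 0.43, with an edgeR adjusted p of 0.369. *Adamts12*, the most abundant of the class per kb, stood at 100.2, 102.4 and 94.7 CPM against 92.8, 76.7 and 78.9 CPM. The groups did not overlap, but the log2 fold change of -0.26 had a 95% interval that just included 0 (-0.53 to 0.01) and an edgeR adjusted p of 0.480. *Adamts10*, a microfibril-associated member, stood at 41.3, 38.7 and 45.3 CPM against 37.3, 39.0 and 32.6 CPM, and its groups overlapped at a log2 fold change of -0.20.

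The largest fold differences of the family were in 2 weakly expressed genes. *Adamts19* (chromosome 18, 58836667 to 59054060) was counted 114, 60 and 126 times in *Egr1*+/+ libraries, against 39, 21 and 14 times in *Egr1*-/- libraries. This corresponds to 3.32, 2.00 and 2.92 CPM against 1.17, 0.678 and 0.453 CPM, without overlap. *Adamts19* thus had a log2 fold change of -1.83 ± 0.38 (SE), or 0.281 times the *Egr1*+/+ level, with adjusted p-values of 0.165 in edgeR and 0.00173 in DESeq2. *Adamts19* lies on the same chromosome as *Egr1*, 24 Mb away. *Adamts16* (chromosome 13, 70727802 to 70841811, minus strand) had 87, 136 and 103 counts against 65, 25 and 19. Its levels of 2.53, 4.53 and 2.39 CPM against 1.95, 0.807 and 0.614 CPM did not overlap, and the log2 fold change was -1.47 ± 0.45 (SE), with adjusted p-values of 0.288 in edgeR and 0.0418 in DESeq2.

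The other 15 *Adamts* genes tested, those named above among them, had log2 fold changes from -0.34 (*Adamts13*) to 0.30 (*Adamts9*) and edgeR adjusted p-values of 0.480 to 0.998. *Adamts13*, the von Willebrand factor protease made mainly in liver, had a mean of 0.399 CPM in *Egr1*+/+ and 0.318 CPM in *Egr1*-/- mice. *Adamts7* overlaps *Tbc1d2b* on the other strand, so that its counts are uncertain if strand was not used.

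The ADAMTS-like genes encode matrix glycoproteins rather than proteases. *Adamtsl4* (chromosome 3, 95676201 to 95687917, minus strand), whose product binds fibrillin microfibrils, stood at 11.7, 13.6 and 13.3 CPM in *Egr1*+/+ mice and at 10.3, 7.43 and 6.50 CPM in *Egr1*-/- mice. The groups did not overlap, and the log2 fold change was -0.67 ± 0.18 (SE), with adjusted p-values of 0.247 in edgeR and 0.0584 in DESeq2. *Adamtsl1* (chromosome 4, 85514172 to 86428385), also called punctin, stood at 10.6, 18.0 and 13.1 CPM against 11.4, 8.65 and 8.02 CPM. Here *Egr1*-/- replicate 1 lay above *Egr1*+/+ replicate 1, and the log2 fold change was -0.57 ± 0.22 (SE), with an edgeR adjusted p of 0.388. Its unadjusted edgeR p of 0.0268 became 0.113, 0.0792 and 0.0879 without *Egr1*+/+ replicate 2, *Egr1*-/- replicate 2 or *Egr1*-/- replicate 3. *Adamtsl2*, *Adamtsl3* and *Adamtsl5* had log2 fold changes of 0.44, -0.07 and -0.41, with edgeR adjusted p-values of 0.743, 0.922 and 0.666. *Papln*, an ADAMTS-like gene outside the rule by its name, had a log2 fold change of 0.79, with an edgeR adjusted p of 0.246.

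Summed over each class, the *Mmp* genes stood at 196 ± 6.91 CPM (SD, n = 3) in *Egr1*+/+ and 150 ± 16.2 CPM in *Egr1*-/- mice, without overlap (189.7, 196.2 and 203.5 against 167.4, 135.2 and 148.3). The *Timp* genes stood at 341 ± 48.5 and 273 ± 45.7 CPM, with overlap, since *Egr1*-/- replicate 1 at 325.5 CPM lay above *Egr1*+/+ replicates 1 and 3. The *Adamts* sum was 399 ± 11.5 against 353 ± 31.8 CPM and the *Adamtsl* sum 42.6 ± 2.75 against 31.9 ± 5.08 CPM, both narrowly without overlap. For *Adamts*, *Egr1*-/- replicate 1 at 388.6 CPM lay just under the lowest *Egr1*+/+ mouse at 392.2 CPM. For *Adamtsl* the same mouse stood at 37.8 CPM, against 39.4 CPM in the lowest *Egr1*+/+ mouse. The stromal progenitor and fibroblast markers, which did not overlap either, stood at no more than 997 CPM in *Egr1*-/- mice and at 1272 CPM or more in *Egr1*+/+ mice, and their part in the class sums was not tested.

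**Figure D4:**
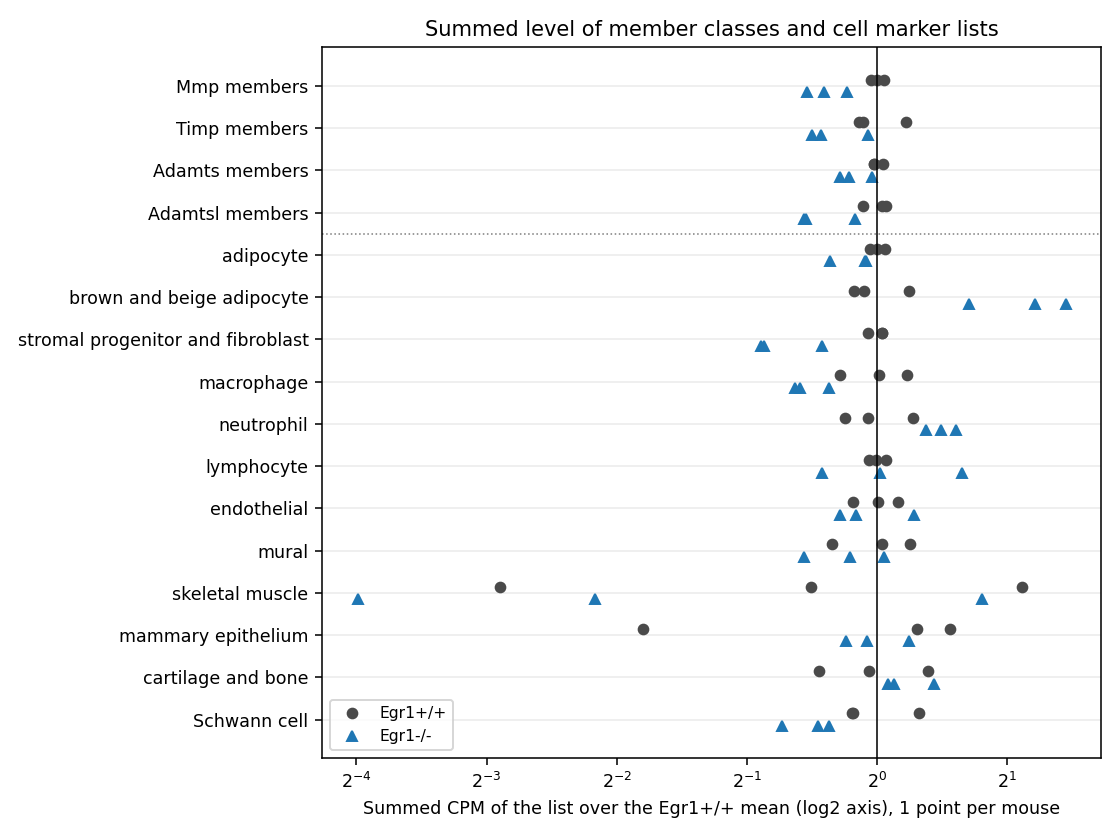
Summed CPM of each gene class (above the dotted line) and of each cell marker list (below), over the mean of the *Egr1*+/+ mice, on a log2 axis with 1 point per mouse. The *Mmp*, *Adamts* and *Adamtsl* triangles lie left of the circles, as do those of the adipocyte, stromal progenitor, macrophage and Schwann cell lists, while those of the neutrophil list and of the brown and beige list, the latter at 840 to 1405 CPM, lie right.

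Ratios of counts within a mouse do not depend on the scaling between mice. In all 7 were taken, chosen with the values known. They were between genes of the MMP2 activation route, between inhibitors, or between neighbouring genes. *Timp2* over *Mmp2* was 1.45, 1.66 and 1.42 in *Egr1*+/+ mice, against 1.58, 1.39 and 1.27 in *Egr1*-/- mice. The means of 1.51 ± 0.129 and 1.41 ± 0.155 (SD, n = 3) overlapped in their mice, with a p of 0.4 in a two-sided exact permutation test. *Mmp14* over *Mmp2* was 0.764 ± 0.208 and 0.734 ± 0.0213, and *Timp2* over *Mmp14* 2.10 ± 0.724 and 1.92 ± 0.176, likewise with overlap. The spread of both *Mmp14* ratios was several times wider in the *Egr1*+/+ mice, where replicate 2 had the lowest *Mmp14* and the highest *Timp2* level of its genotype.

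*Timp4* over *Timp2* was 0.292, 0.393 and 0.210 in *Egr1*+/+ mice, against 0.756, 0.513 and 0.657 in *Egr1*-/- mice. The groups did not overlap, with means of 0.298 ± 0.0917 and 0.642 ± 0.122 (SD, n = 3), and the exact permutation p was 0.1, the smallest that 3 mice against 3 allow. *Adamts5* over its neighbour *Adamts1* was 2.02, 1.82 and 2.47 against 1.34, 1.30 and 1.21, again without overlap and with an exact permutation p of 0.1. Over the 7 ratios, no Benjamini-Hochberg adjusted p was under 0.35 by this exact test. As 3 mice against 3 allow no p under 0.1, the exact test could not call any ratio at the threshold used for the genes. It therefore cannot decide whether a ratio differs. The pairs were chosen with the values known, so the lack of overlap only describes these mice. The share of other gene pairs without overlap was not taken.

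**Figure D5:**
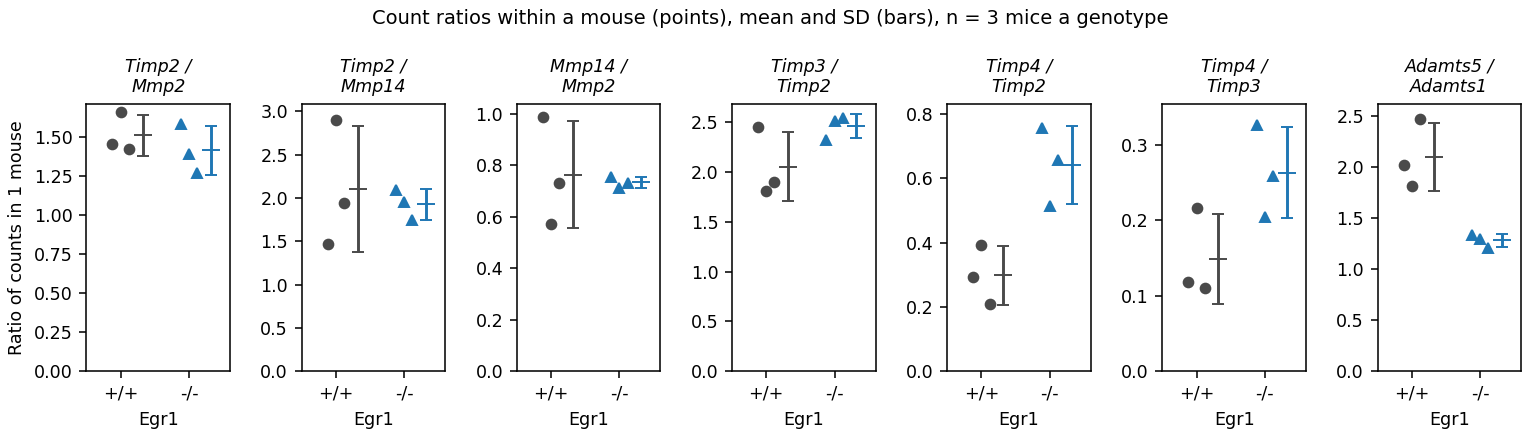
Ratio of the counts of 2 genes within each mouse (points) for 7 pairs, with the mean and SD of each genotype (bars, n = 3 mice), each panel starting at 0. *Timp4* over *Timp2* is higher and *Adamts5* over *Adamts1* lower in all *Egr1*-/- mice, while the other 5 ratios overlap between the genotypes. The pairs were chosen with the values known.

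Other genes of matrix turnover were counted by lists. Of all genes tested, 5.60% were lower and 5.06% higher at an unadjusted p under 0.05 in edgeR. Of the procollagen processing genes, all 4 tested were lower at an unadjusted p under 0.05 in edgeR: *Pcolce2*, an enhancer of the C-proteinase, at 25.9 ± 5.96 CPM against 13.1 ± 4.78 CPM (SD, n = 3), *Tll1*, *Pcolce* and *Bmp1*, the C-proteinase itself, with log2 fold changes of -0.98, -0.42, -0.39 and -0.44. Of the 9 ADAMTS substrates tested, 5 were lower and 0 higher by the same measure, among them the fibrillin gene *Fbn1* (529.7 ± 34.0 against 286.9 ± 67.5 CPM), the versican gene *Vcan* (63.4 ± 13.6 against 37.1 ± 9.23 CPM) and the collagen genes *Col1a1* and *Col1a2*. Their log2 fold changes were -0.88 for *Fbn1*, -0.77 for *Vcan*, -0.62 for *Col1a1* and -0.58 for *Col1a2*. Adjusted edgeR p-values over both lists were 0.160 or more.

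At an unadjusted p under 0.05 in edgeR, 5.60% of all genes tested were lower and 5.06% higher. Of the 11 cathepsins and other proteases tested, 5 were lower and 0 higher by this measure. Those with the lowest p were *Fap*, the fibroblast activation protein, with a log2 fold change of -0.68, *Ctsk*, a collagen-cutting cathepsin, with -0.75, *Htra1* with -0.49 and *Ctsl* with -0.48. Of 7 plasminogen system genes 1 was lower, the tissue plasminogen activator *Plat* (16.3 ± 0.604 against 9.08 ± 2.04 CPM, SD, n = 3, log2 fold change -0.84). Of 9 cell-surface and soluble regulators 3 were lower, *Thbs1*, *Tfpi2* and *Thbs2*, with log2 fold changes of -0.67, -0.97 and -0.72. The only regulator higher by this measure was *Furin*, whose product activates the precursors of MMP11 and MMP14, at 19.8 ± 1.61 against 16.3 ± 0.726 CPM (SD, n = 3), higher in all 3 *Egr1*-/- mice. Of the 11 ADAM genes, the membrane-anchored relatives, 0 passed in either direction, and their median log2 fold change was -0.10. The list medians were -0.29 for the plasminogen system, -0.43 for procollagen processing, -0.28 for the regulators, -0.48 for the cathepsins and -0.58 for the ADAMTS substrates, against 0.00109 over all genes. None of these genes passed an adjusted p of 0.05 in edgeR. At the same threshold DESeq2 called 5 ADAMTS substrates lower (*Fbn1*, *Vcan*, *Col1a1*, *Col1a2* and *Col3a1*), 3 cathepsins and other proteases (*Fap*, *Ctsk* and *Ctsl*), 1 plasminogen system gene (*Plat*) and 1 procollagen processing gene (*Pcolce2*), and 0 regulators, 0 ADAM genes and 0 genes higher. Of all genes tested, DESeq2 called 1.14% lower and 0.702% higher. The lowest DESeq2 adjusted p-values of the lists were 0.000114 for *Fbn1* and 0.00252 for *Plat*.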

How the data were processed

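Ribosomal RNA was depleted from total RNA of the fat pads and strand-specific libraries were sequenced, 1 per mouse. Reads were mapped by the authors to GRCm38/mm10 (TopHat2, Bowtie2) and assigned with featureCounts to the genes of GENCODE M8. The deposited values are the resulting counts of reads for each gene, not normalized. The strand and multimapping settings of the counting are not given in the sources used here, and the study's methods and the labels differ on whether reads were single-end or paired-end.

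Gene identifiers without version were matched to GENCODE M21 for 46574 of 47069 genes. The main test was the quasi-likelihood test of edgeR 4.0.16 (R 4.3.3), with TMM normalization, filterByExpr at a minimum count of 10 and genotype as the only term. Benjamini-Hochberg adjustment ran over all 17667 genes tested, with a threshold of 0.05. Intervals are the log2 fold change with its SE at 95%. DESeq2 1.42.0 and limma-voom (limma 3.58.1), other normalizations and filters, a replicate block and leaving out each mouse were alternatives. The procedure was run on simulated data with log2 changes larger than most of those described here, so that run does not cover the smaller ones. Genotypes and replicate numbers came from the labels. The 6 libraries are separate animals, of which 1 pair across the genotypes were littermates.

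Values in every mouse are given for the *Timp* genes, for genes with an unadjusted p under 0.05, for the 12 highest levels per kb and for *Mmp2*. The study, whose own test was DESeq2, names *Mmp2* as lower in *Egr1*-/- SC-WAT and reports the same direction by RT-qPCR. Values of *Mmp11* and *Mmp24* were added after they had been seen. Up to 4 genes with the lowest p are named from each list of other matrix genes, and *Papln* and *Col3a1* were named after their values had been seen. The genes, the lists of other matrix genes and the cell markers were chosen with earlier results of these data known. *Dpp4*, *Acan*, *Col2a1* and *Vwf* are in more than 1 list.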

Additional observations from a re-analysis of the deposited data

How the results depend on the processing

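Of the 13 genes lower at an unadjusted p under 0.05, all 13 were lower by that measure with DESeq2, limma-voom, RLE, upper-quartile and total-count normalization, without a filter and without mitochondrial genes, and 12 with at least 1 CPM in 3 mice, where *Timp1* was not among the 37 genes tested. Total-count normalization moved the median log2 fold change of all genes to -0.147, that of the 44 genes to -0.42, of *Mmp* genes to -0.27, of *Adamts* genes to -0.42 and of *Egr1* to -2.39. *Adamts8* (-0.088), *Mmp15* (-0.020), *Mmp17* (-0.056) and *Mmp8* (-0.081) fell below 0 but stayed above that median of all genes. The adjusted p was passed by 2 genes, *Adamts16* and *Adamts19*, both lower (against 0.379% of all genes). DESeq2 called 7 genes and put *Egr1* (-2.19) past the threshold. Without a filter 7 of 50 genes were called, all lower (against 0.808% of 38261 genes), and *Egr1* (-2.18) passed. At an unadjusted p under 0.05, 2 genes were higher (against 1324 of the 38261). The cause of these differences was not tested. Limma-voom gave 1 gene higher at an unadjusted p (against 871 of all 17667). Its sign changed for *Adamts8* (-0.073) and *Mmp27* (0.21), as it did for *Adamts8* with upper-quartile normalization (-0.0045).

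Same-numbered mice deviated from their genotype means with correlations of -0.0843, 0.103 and -0.135 over 17667 genes. These values gave no sign that the replicate numbers pair the mice, but they cannot exclude a shared litter. A replicate block called 0 genes at an adjusted p and kept the same 13 lower genes. It gave 1 higher gene at an unadjusted p (against 868 of all 17667), and turned *Adamts8* (-0.076) and *Mmp27* (0.11).

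Leaving out each mouse in turn gave 0 genes at an adjusted p, 11 to 16 lower and 0 to 1 higher at an unadjusted p, and 14 to 18 lower and 0 to 2 higher without overlap. Of all genes tested in these fits, 3.8% to 7.26% were lower at an unadjusted p under 0.05. The share of all genes without overlap was not taken here, and groups of fewer mice separate more easily. The higher gene was *Adamts9* without *Egr1*+/+ replicate 1 (log2 fold change 0.43), *Timp4* without *Egr1*+/+ replicate 2 (0.94), *Mmp25* without *Egr1*-/- replicate 1 (0.94) and *Adamts1* without *Egr1*-/- replicate 2 (0.39). Median log2 fold changes ran from -0.29 to -0.21 for all 44 genes, -0.34 to -0.0021 for *Mmp*, -0.61 to -0.37 for *Timp*, -0.30 to -0.20 for *Adamts* and -0.73 to -0.22 for *Adamtsl* genes, and *Egr1* from -2.39 to -1.85. In every such fit 10 of the 13 lower genes had an unadjusted p under 0.05, the exceptions being *Timp3*, *Mmp16* and *Adamtsl1*. Genes near 0 changed sign: *Adamts14* (-0.22 to 0.19), *Adamts17* (-0.53 to 0.11), *Adamts18* (-0.76 to 0.16), *Adamts4* (-0.62 to 0.015), *Adamts7* (-0.25 to 0.052), *Adamts8* (-0.75 to 0.46), *Adamtsl3* (-0.24 to 0.029), *Mmp13* (-0.11 to 0.39), *Mmp17* (-0.20 to 0.35), *Mmp27* (-0.49 to 0.61), *Mmp28* (-0.21 to 0.071), *Mmp8* (-0.29 to 0.26) and *Mmp9* (-0.36 to 0.28). With 3 mice a genotype, members at a few counts could not be resolved.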
